A study of Schizosaccharomyces pombe with 4 samples.

Results

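The *sim3-143* profile comprised the 2 arrays, of 4 in the series, on which RNA of fission yeast *sim3-143* cells was set against RNA of wild-type cells. They were chosen by their labels, which name the allele in 1 channel and wild-type in the other. Both RNAs came from logarithmically growing cultures and were compared on spotted arrays of *Schizosaccharomyces pombe* open reading frames, with every probe printed in 2 spots. The mutant was labelled with Cy3 and wild-type with Cy5 in replicate 1, and the dyes were swapped in replicate 2. The other 2 arrays of the series compare a second allele, *sim3-205*, with wild-type in the same way.

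The *sim3-143* group carries a missense allele of *sim3* that was isolated because it relieves silencing of a marker gene in the central core of a centromere, and these cells grow poorly. The wild-type group carries the intact gene. The strain background, growth temperature, and number of cultures behind each array are not given in the sources used here, nor is it stated whether the 2 arrays share RNA extracts. The replicates are therefore arrays, and the spread between them may be technical. Values of a population cannot tell a change in the mRNA per cell from a change in the share of cells that make it.

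Sim3 belongs to the family of NASP-like histone chaperones, proteins that hold histones before they are built into chromatin. It binds histone H3 and Cnp1, the CENP-A of fission yeast, and helps to deliver Cnp1 to centromeres, where kinetochores form. Profiling asked whether a defective Sim3 alters gene expression. In fission yeast, stress raises a common set of genes for heat-shock proteins and for enzymes that handle oxidants, while rapid growth depends on genes for sugar uptake, biosynthesis and the making of ribosomes.

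Each array held 11520 spots, and 4825 of 4857 gene names had a value in all 4 spots. A value is the log2 ratio of *sim3-143* over wild-type after background correction and loess normalization of the dyes, so 1 unit is a factor of 2. The 4868 gene probes were named by grid position from replicate 1, because the names written for replicate 2 ran in alphabetical order over 99.7% of neighbouring spots and apart from the values. By that layout, empty and buffer spots of replicate 2 had a median intensity (both dyes summed) of 354, against 4794 at the other spots, whereas by the written names the medians were 4635 and 4360.

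Replicate 2 gave wider ratios than replicate 1, and its ratios differed more by grid. After normalization, grid medians ran from -0.19 to 0.18 on replicate 1 and from -0.59 to 0.24 on replicate 2. The loess used here did not treat grids apart, so ratios of replicate 2 may carry the offset of their grid. With print-tip loess, which does, 84 genes were higher and 54 lower past 1.5-fold by the count rule given below. The SD across genes was 0.308 in replicate 1 and 0.496 in replicate 2, and 258 and 983 genes were past 1.5-fold in either direction on replicates 1 and 2. Across the 4825 genes, which are not independent replicates, the arrays correlated with a Pearson r of 0.478 and a Spearman coefficient of 0.425. The 2 spots of a probe correlated at 0.904 on replicate 1 and 0.922 on replicate 2, so spots of 1 array varied together far more than the arrays did. Of the 4825 genes, 3 were past 1.5-fold in opposite directions on the 2 arrays, though few were past it on replicate 1 at all.

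**Figure D1:**
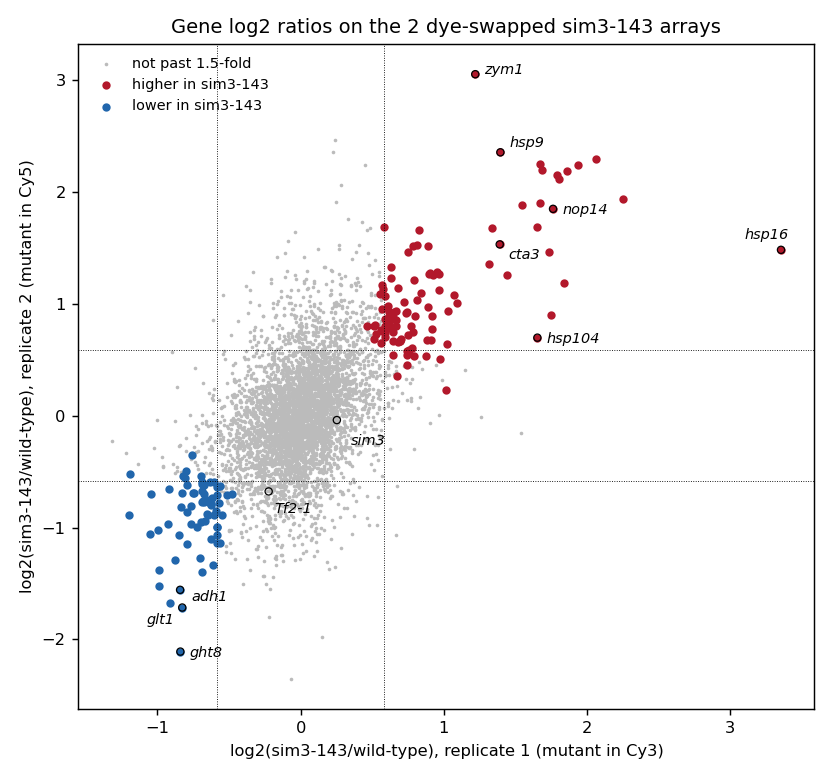
Each point is a gene, plotted at its log2 ratio of *sim3-143* over wild-type on replicate 1 (x axis) and replicate 2 (y axis), each the mean of 2 spots. Dotted lines mark 1.5-fold, and red and blue points are the 101 genes higher and the 67 genes lower past 1.5-fold in at least 3 of 4 spots. The y values spread more widely than the x values, and *sim3* lies near the origin.

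By the rule that at least 3 of the 4 spots (2 on each array) pass the cutoff in the same direction, 101 genes were higher in *sim3-143* past 1.5-fold (2.09% of 4825) and 67 were lower (1.39%). Past 2-fold, 24 were higher (0.497%) and 2 were lower (0.0415%). Of the 101, 11 were probes for Tf2 retrotransposons, whose nearly identical copies do not count as separate genes. Many of the 24 were also Tf2 probes. All 4 spots were past 1.5-fold for 64 of the higher and 36 of the lower genes. This rule gives no p-value. With replicate 1 left out, 442 genes were higher and 354 lower past 1.5-fold in both spots, and with replicate 2 left out 112 were higher and 101 lower.

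In limma's fit over the 4 arrays of both alleles, 0 of 4820 genes passed an adjusted p of 0.05 for *sim3-143*, with a lowest adjusted p of 0.115 and 419 genes (253 higher) at an unadjusted p under 0.05. When limma was fitted to the *sim3-143* arrays alone, which leaves 1 residual degree of freedom, 34 genes were higher (0.704% of 4827) and 9 were lower (0.186%) at an adjusted p under 0.05. All 43 were among the 168 genes past 1.5-fold, and Tf2 probes were among the 34 higher ones. Leaving out either *sim3-205* array amounts to the same fit, because 1 remaining array with its own coefficient adds nothing to the spread. On replicate 1 of *sim3-205* the dyes were unrelated in 3 of the 32 grids, and with those grids left out of the 4-array fit 9 genes were higher and 0 lower.

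By medians, the higher and the lower genes were both brighter than all measured genes. Genes that were higher had median normalized intensities of 6537 and 5460 in *sim3-143* and 3555 and 2741 in wild-type (replicates 1 and 2). Genes that were lower had medians of 3002 and 3460 in *sim3-143* and 5064 and 6523 in wild-type. The medians of all measured genes were 2517 and 2365 in *sim3-143*, against 2508 and 2367 in wild-type. Choosing genes by their ratio itself favours strong wild-type signals among lower genes and strong *sim3-143* signals among higher genes. None of the 168 was within 2 times its local background in all spots of a dye, 3 had at least 1 spot that was, and 5 had at least 1 saturated spot.

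*sim3* itself differed little between the strains. Its normalized intensity was 2719 and 2463 in *sim3-143*, against 2281 and 2530 in wild-type, and its log2 ratio was 0.25 on replicate 1 and -0.04 on replicate 2. The groups overlapped. As the allele is a missense change, this probe does not check which channel held the mutant.

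Heat-shock and stress genes were among the highest. *hsp16*, which encodes a small heat-shock protein that binds unfolded proteins, had intensities of 69010 and 74570 in *sim3-143* and 6743 and 26640 in wild-type. All 4 of its *sim3-143* spots were saturated, so the ratio is a bound: by the means of log2 values, *hsp16* was at least 5.35-fold higher in *sim3-143* (mean log2 ratio 2.42 ± 1.32, SD, n = 2), with 10.2-fold on replicate 1 and 2.80-fold on replicate 2. *hsp9*, encoding a small protein induced by heat and in stationary phase, had intensities of 56570 and 75300 in *sim3-143*, against 21500 and 14690 in wild-type, and its *sim3-143* spots of replicate 2 were saturated. The mean log2 ratio of *hsp9* was 1.88 ± 0.68 (SD, n = 2), a lower bound for the same reason. Both *sim3-143* values of each gene lay above both wild-type values, which choosing genes by a high ratio itself favours. The share of all genes so separated was not counted.

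*zym1*, encoding a metallothionein that binds zinc, had intensities of 3587 and 7235 in *sim3-143* and 1540 and 869.9 in wild-type. Its log2 ratio was 1.22 on replicate 1 and 3.06 on replicate 2, the most uneven pair of arrays among the named stress genes after *hsp16*. *hsp104*, a disaggregase that pulls proteins out of aggregates, had 12760 and 17060 in *sim3-143*, against 4055 and 10510 in wild-type. *cta3*, a cation pump of the P-type ATPase family, gave log2 ratios between 1.39 and 1.64 in its 4 spots. In limma on the *sim3-143* arrays alone, the adjusted p was 0.024 for *hsp16*, 0.0093 for *hsp9*, 0.040 for *zym1* and 0.0074 for *cta3*, and it was 0.079 for *hsp104*. In the 4-array fit the lowest of these was 0.138, for *cta3*.

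Of 26 probes for stress-response genes, 7 were higher (26.9%, against 2.09% of all genes) and 0 lower. Besides the 5 above, these were *gpx1*, encoding glutathione peroxidase, at 0.77 ± 0.22 and *tms1*, encoding a hexitol dehydrogenase, at 0.84 ± 0.13 (SD, n = 2). The median log2 ratio of the list was 0.28, against -0.01 over all genes. The other 19 did not pass: *ctt1*, for catalase, gave 0.12 and 0.04 on replicate 1 and 0.91 and 0.93 on replicate 2, *gpd1* had a mean of -0.01 by 1 probe and -0.51 by another, and *tps1*, for trehalose phosphate synthase, had a mean of -0.12. *ntp1*, for neutral trehalase, was above 0 on replicate 1 (0.49 and 0.44) and below 0 on replicate 2 (-0.77 and -0.65). Stress genes thus split, with some of the highest ratios on the arrays beside members near 0.

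Among 18 probes for heat-shock proteins and chaperones, the 3 higher (16.7%, against 2.09% of all genes) were *hsp16*, *hsp9* and *hsp104*, and none was lower. The median log2 ratio was 0.09, with 0.35 on replicate 1 and -0.0040 on replicate 2. *hsp90*, the cytosolic chaperone, had a mean of -0.05. *ssa1*, a cytosolic Hsp70, gave 1.24 and 1.28 on replicate 1 but -0.08 and 0.05 on replicate 2, and the mitochondrial chaperonin *hsp60* gave -0.18 and -0.08 on replicate 1 but -1.21 and -1.10 on replicate 2. General chaperones therefore did not pass in either direction on both arrays.

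**Figure D2:**
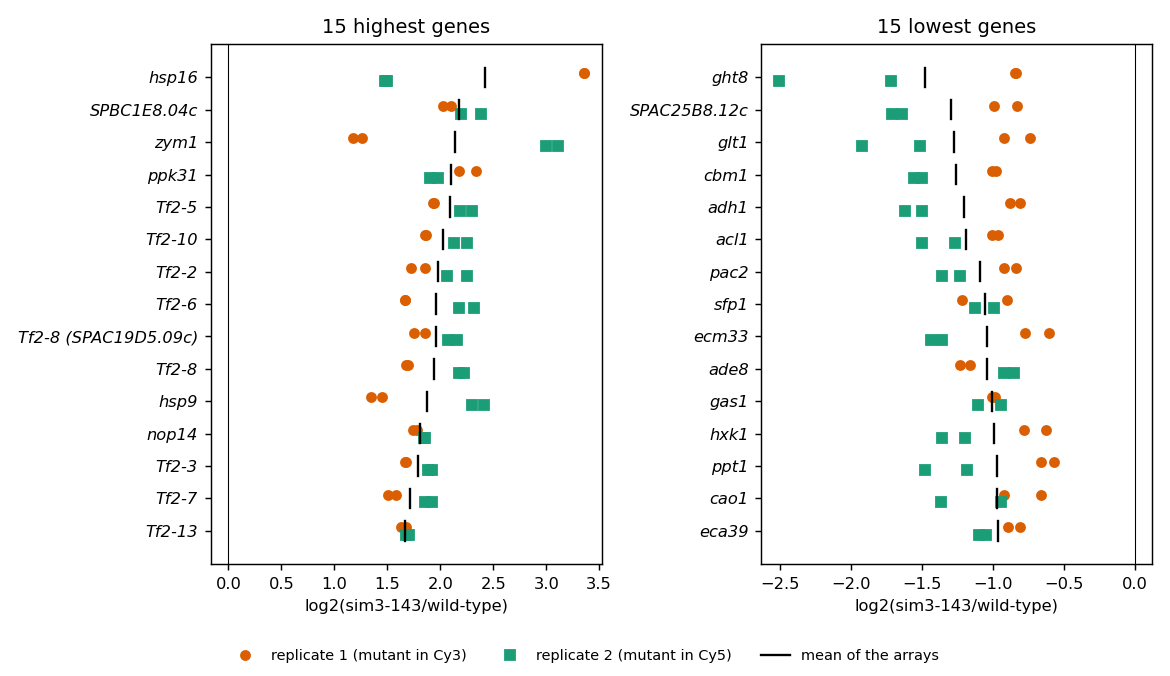
The log2 ratio of *sim3-143* over wild-type in each of the 4 spots of the 15 highest (left) and 15 lowest (right) genes past 1.5-fold with all spots in the same direction. Circles are spots of replicate 1, squares are spots of replicate 2, and bars are means of the arrays. The spots of an array lie close together, and the distance between arrays is largest for *hsp16* and *zym1*.

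Probes for Tf2 retrotransposons formed the largest group at the top. Tf2 is a mobile element of the genome that copies itself through RNA, and its copies are nearly identical, so the probes cannot tell which copies were transcribed and do not count as separate genes. Of 12 Tf2 probes, 11 were higher (91.7%, against 2.09% of all genes) and 0 lower, and the median log2 ratio was 1.86. The authors' deposited ratios, moved back to their spots, held only 1 of the 12, at 0.797, against 0.833 here. The highest was *Tf2-5*, with 1.93 and 1.94 on replicate 1 and 2.30 and 2.19 on replicate 2. *Tf2-12* was the lowest of the 11, at 1.02 on replicate 1 and 0.64 on replicate 2. The 12th probe, *Tf2-1*, gave -0.26 and -0.19 on replicate 1 and -0.74 and -0.62 on replicate 2, so it did not pass. In limma on these arrays alone, 10 of the 11 had an adjusted p under 0.05, and the exception was *Tf2-12* at 0.111. In the 4-array fit the lowest adjusted p of a Tf2 probe was 0.115.

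The probe SPBC1E8.04c, at 2.18 ± 0.16 (SD, n = 2), was the second highest. The gene table used for names does not hold that identifier, though it lists one without the final letter as *Tf2-10*.

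Other genes at the top had several roles and were closer between arrays than *hsp16* or *zym1*. *nop14*, encoding a nucleolar protein of the complex that makes the small ribosomal subunit, had intensities of 19080 and 39720 in *sim3-143*, against 5621 and 11010 in wild-type, and a mean log2 ratio of 1.81 ± 0.06 (SD, n = 2). *ppk31*, encoding a serine/threonine protein kinase, had 2871 and 1733 in *sim3-143* and 602.2 and 450.9 in wild-type, a mean of 2.10 ± 0.22. *obr1*, encoding a flavodoxin-like protein, had a mean of 1.60 ± 0.19 and was saturated in the *sim3-143* spots of replicate 2, so that mean is a lower bound. All 4 spots of each of these genes were above 0.

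Enzymes and transporters were also among the higher genes. They included *urh1*, encoding uridine ribohydrolase, at 1.12 ± 0.24, *ams1*, encoding vacuolar alpha-mannosidase, at 1.15 ± 0.52, and *nta1*, encoding an N-terminal amidase, at 1.21 ± 0.45. The amino acid permease *agp3* was at 0.79 ± 0.19 (SD, n = 2 for each). Of 13 probes for amino acid permeases, *agp3* was the only one higher and *aat1*, at -0.73 ± 0.07, the only one lower. Genes of membrane traffic were *apl5*, for a subunit of the AP-3 adaptor, at 0.90 ± 0.02, *vps32*, for an ESCRT-III subunit, at 0.67 ± 0.13, and *vps3* at 0.66 ± 0.10. *vps32* and *vps3* were the only higher members among 36 vacuolar sorting genes (5.56%, against 2.09% of all genes), whose median was -0.01. The vacuolar sorting list was drawn up after the values had been seen.

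Genes of the meiotic linear elements, the chromosome axes on which fission yeast recombination is built, were also among the higher genes. *rec27* had intensities of 36580 and 8590 in *sim3-143* and 20590 and 2722 in wild-type. Both channels were far brighter on replicate 1, and the groups overlapped. The log2 ratios of *rec27* were 0.83 and 0.83 on replicate 1 and 1.66 and 1.66 on replicate 2. *rec10*, encoding a main component, was at 0.73 ± 0.10, and *mug20* was at 0.78 ± 0.15 (SD, n = 2). The 4th member measured, *rec25*, was at 0.25 and -0.01 on replicate 1 and -0.44 and 0.57 on replicate 2 and did not pass. These 4 were grouped after their values had been seen. In limma on these arrays alone the adjusted p was 0.048 for *rec27*, and 0.125 and 0.120 for *rec10* and *mug20*.

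Few of a wider set of genes known from meiosis passed. Of 184 genes with *mug* or *meu* names, given to transcripts that rise in meiosis, 6 were higher (3.26%, against 2.09% of all genes) and 0 lower, and the median log2 ratio was 0.09. Both arrays were above 0 for 89 of the 184 (48.4%, against 32.7% of all genes). The 6 higher genes were *ppk31*, *rec27*, *mug110*, *tht2*, *mug20* and *meu32*. This list of *mug* and *meu* genes was drawn up after the values had been seen. None of 19 mating and meiosis genes passed in either direction, with a median of 0.09. *spo6*, needed for meiotic divisions and spores, stood outside that list at 0.69 ± 0.01 (SD, n = 2), as did *agn2*, encoding a glucanase that opens the ascus, at 0.97 ± 0.18.

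Sim3 acts on Cnp1 and H3, and most genes of centromeres and chromatin lay near 0. *cnp1* had intensities of 2400 and 2083 in *sim3-143*, against 2554 and 1677 in wild-type, and log2 ratios of -0.09 on replicate 1 and 0.31 on replicate 2, so its groups overlapped. Of 25 CENP-A and kinetochore genes, 1 was higher (4.00%, against 2.09% of all genes) and 0 lower, with a median of 0.05. The exception was *fta3*, encoding a kinetochore subunit, with 0.74 and 0.74 on replicate 1 and 0.63 and 0.27 on replicate 2. *mis12*, another kinetochore subunit, had a higher mean of 0.92 ± 0.52 but missed the rule, since 1 spot of replicate 1 was at 0.51 and the other at 0.58. Factors of Cnp1 loading were at 0.05 for *scm3*, 0.21 for *mis6*, 0.28 for *mis18*, -0.36 for *mis16* and 0.34 for *sim4* (mean log2 ratios), and none passed.

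Among 9 probes for core histones and H2A.Z, *htb1*, the gene of histone H2B, was the only one past 1.5-fold. It gave 0.62 and 0.73 on replicate 1 and 0.63 and 0.08 on replicate 2, so it met the rule by 3 spots while its mean was 0.52. The H3 genes *hht2* and *hht3* had means of 0.32 and 0.24. None of 13 histone chaperone genes and none of 16 genes of heterochromatin and RNA interference passed, with medians of 0.10 and 0.04. *hrp1*, encoding a chromatin remodeller of the CHD family, was on neither list and was higher at 0.68 ± 0.02, while its relative *hrp3* was at -0.04. *sap18* was higher at 0.60 ± 0.12, and *poz1*, which links proteins of the telomere, at 0.74 ± 0.33 (SD, n = 2).

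The lower genes included members of lists for sugar and amino acid uptake and for biosynthesis. *ght8*, of the hexose transporter family, had the lowest measured mean log2 ratio, -1.47 ± 0.90 (SD, n = 2). Its intensities were 4608 and 2339 in *sim3-143*, against 8247 and 10100 in wild-type, and its spots were at -0.85 and -0.83 on replicate 1 and -1.72 and -2.50 on replicate 2. Of 7 hexose transporter probes, *ght8* was the only one lower and *ght1* the only one higher, at 0.66 ± 0.19, with 1 spot at 0.15. *ght5*, for the main glucose transporter, was at -0.04.

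In sugar breakdown, 2 of 17 probes were lower (11.8%, against 1.39% of all genes) and 0 higher. *adh1*, for the alcohol dehydrogenase that ends fermentation, had intensities of 34730 and 12850 in *sim3-143* and 62240 and 37810 in wild-type, where the spots of replicate 1 were saturated. Its mean was -1.20 ± 0.51 (SD, n = 2), and the true ratio may be lower still because of those spots. *hxk1*, a hexokinase, had 1871 and 2739 in *sim3-143*, against 3044 and 6623 in wild-type. The median of the list was -0.17, with -0.03 on replicate 1 and -0.20 on replicate 2. The deposited ratios moved back to their spots held 1 member, at 0.0751, against 0.0944 here. *pyk1*, for pyruvate kinase, was at -0.31 and -0.29 on replicate 1 and -1.20 and -1.13 on replicate 2 and did not pass.

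The pentose phosphate pathway branches from glycolysis and supplies NADPH and ribose. *gnd1*, for 6-phosphogluconate dehydrogenase, was at -0.86 ± 0.39, and *tkt1*, for transketolase, at -0.60 ± 0.01 (SD, n = 2) with 1 wild-type spot saturated. These were the 2 lower of the 6 pentose phosphate genes measured (33.3%, against 1.39% of all genes). All 6 had ratios below 0 on both arrays, against 32.8% of all genes, and the median was -0.43. The others were not past 1.5-fold, among them *zwf1* at -0.43 and *tal1* at -0.15. This list was drawn up after these values had been seen.

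Genes of lipid synthesis had the largest share of lower genes among the lists, though the size of the shift differed between arrays. Of 11 members, 5 were lower (45.5%, against 1.39% of all genes) and 0 higher. On both arrays 9 were below 0 (81.8%, against 32.8% of all genes), and the median log2 ratio was -0.61. That median was -0.31 on replicate 1, -0.69 on replicate 2 and -0.36 with print-tip loess. The deposited ratios moved back to their spots held 5 of the 11, with a median of -0.0874, against -0.16 here for the same 5. *cut6*, for the acetyl-CoA carboxylase that commits carbon to fatty acids, had intensities of 7825 and 9655 in *sim3-143*, against 12080 and 16830 in wild-type. *fas1*, for the beta subunit of fatty acid synthase, had 5748 and 7462 in *sim3-143* and 8873 and 16000 in wild-type. The probe named *lsd1* was taken as *fas2*, the gene of the alpha subunit, which once bore that name, because the gene now called *lsd1* has a probe of its own. It had 6743 and 6755 in *sim3-143* and 10260 and 12520 in wild-type. Each of these 3 genes had all *sim3-143* values below all wild-type values, which choosing genes by a low ratio itself favours. The share of all genes so separated was not counted. The mean log2 ratios of *cut6*, *fas1* and *fas2* were -0.71 ± 0.12, -0.86 ± 0.33 and -0.75 ± 0.20 (SD, n = 2).

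The other lower members were *erg25*, for a methylsterol oxidase of ergosterol synthesis, at -0.76 ± 0.09, and *pis1*, for phosphatidylinositol synthase, at -0.61 ± 0.04. Outside the list, *acl1*, for a subunit of the ATP citrate lyase that makes cytosolic acetyl-CoA, had 3002 and 2931 in *sim3-143*, against 5945 and 7650 in wild-type. Its mean was -1.18 ± 0.28, while the partner subunit *acl2* was at 0.07. *ept1*, for an ethanolaminephosphotransferase, was at -0.86 ± 0.14 and *plb1*, for a phospholipase B, at -0.79 ± 0.03 (SD, n = 2). In limma on these arrays alone, *acl1* had an adjusted p of 0.036 and *fas1* of 0.111, and in the 4-array fit both had 0.54.

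Amino acid synthesis showed a broad shift below 0 with few genes past the cutoff. Of 64 probes, 7 were lower (10.9%, against 1.39% of all genes) and 1 higher (1.56%, against 2.09%). On both arrays 45 were below 0 (70.3%, against 32.8% of all genes), and the median was -0.25. *glt1*, for the glutamate synthase that assimilates ammonium, had 1588 and 1234 in *sim3-143*, against 2816 and 4052 in wild-type, a mean of -1.27 ± 0.63. *eca39*, for the branched-chain aminotransferase, had 15550 and 15550 in *sim3-143* and 28070 and 32630 in wild-type. The rest were *gly1* (threonine aldolase, -0.82), *hom3* (aspartate kinase, -0.76), *his1* (-0.71), *lys4* (homocitrate synthase, -0.71) and *met14* (adenylylsulfate kinase, -0.65). *trp1*, of tryptophan synthesis, was the only higher member at 0.79 ± 0.16 (SD, n = 2).

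In nitrogen assimilation, *glt1* was the only lower gene of 13, and *gln1*, for glutamine synthetase, was at -0.39. Purine and pyrimidine synthesis gave 2 lower of 18 (11.1%, against 1.39% of all genes) and 0 higher. *ade8*, for adenylosuccinate lyase, had intensities of 1127 and 2303 in *sim3-143* and 2582 and 4251 in wild-type, and *ura1*, for the first enzyme of pyrimidine synthesis, was at -0.79 ± 0.29 (SD, n = 2). The median of the list was -0.28. The deposited ratios moved back to their spots held only 2 of the 18, with a median of 0.22, against 0.25 here for the same 2. The amino acid and nucleotide lists were drawn up after the values had been seen.

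**Figure D3:**
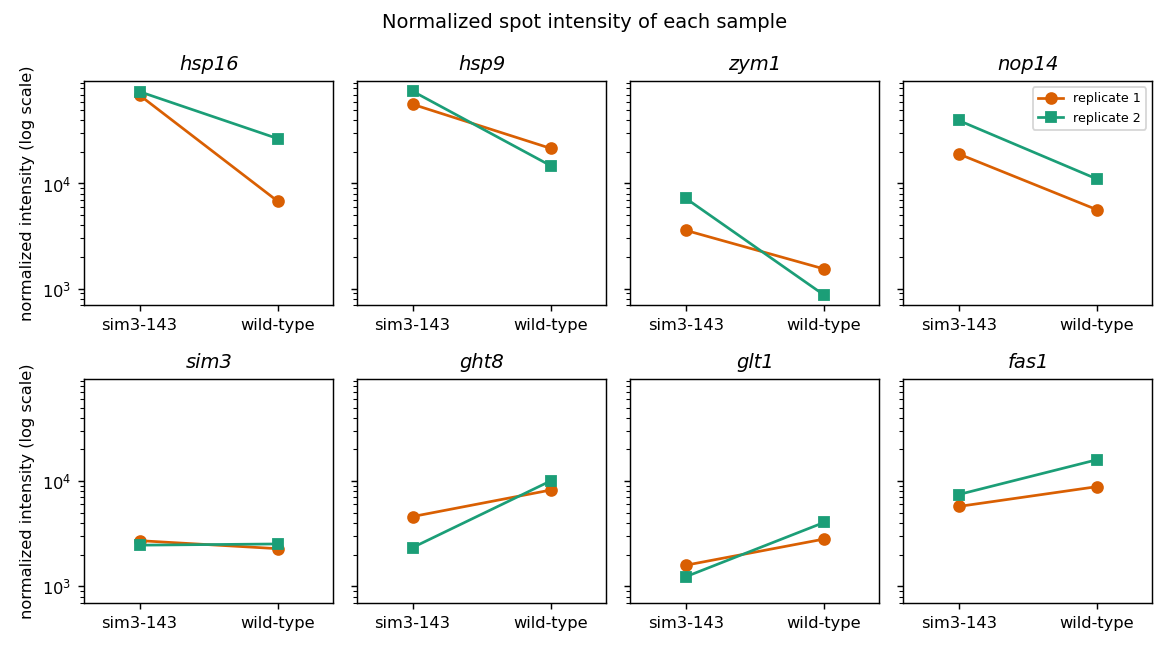
Normalized intensity (log scale, mean of 2 spots) of 8 genes in *sim3-143* (left of each panel) and wild-type (right), with a line for each array. *hsp16*, *hsp9*, *zym1* and *nop14* are higher in *sim3-143* on both arrays, *ght8*, *glt1* and *fas1* are lower on both, and the lines of *sim3* cross.

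Cell surface genes included several lower members. The 21 genes of cell wall synthesis and remodelling were listed after the values had been seen. Of these, 5 were lower (23.8%, against 1.39% of all genes) and 0 higher. The median was -0.19, with -0.05 on replicate 1 and -0.35 on replicate 2. *gas1*, for a glucanosyltransferase that extends beta-glucan, had 6660 and 10810 in *sim3-143*, against 13260 and 21950 in wild-type, and agreed closely between arrays at -1.01 ± 0.02. *ecm33*, for a GPI-anchored wall protein, was at -1.04 ± 0.50, and *psu1*, *pvg1* and *asl1* lay between -0.86 and -0.72. None of 8 cell-surface glycoprotein genes passed.

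Genes of growth and protein synthesis gave a mixed picture. Ribosomal proteins did not pass in either direction in any of 135 probes, with a median of 0.03. A list of 31 translation genes was taken by symbol. Besides initiation and termination factors, the symbols sought included those of elongation factors and *cpc2*. Of the 31, 3 were lower (9.68%, against 1.39% of all genes) and 0 higher, with a median of -0.29. These were *tif1*, for the helicase eIF4A, at -0.68 ± 0.01, *erf1*, for the release factor, at -0.72 ± 0.04, and *cpc2*, for a ribosome-bound WD repeat protein, at -0.59 ± 0.04 (SD, n = 2). The largest subunit of RNA polymerase I, *nuc1*, was at -0.82 ± 0.01. *rpc40*, a subunit shared by RNA polymerases I and III, was at -0.80 ± 0.19. These were the 2 lower of 15 such subunits (13.3%, against 1.39% of all genes).

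Of 76 genes taken by symbol as nucleolar genes of ribosome assembly, 3 were lower (3.95%, against 1.39% of all genes) and 2 higher (2.63%, against 2.09%). The median was -0.06. The lower ones were *fib1*, for fibrillarin, *rcl1* and *drs1*, between -0.71 and -0.65. Roles were not checked beyond the symbol, so *drs1* may not be a gene of ribosome assembly. The higher ones were *nop14*, above, and *nop4* at 0.66 ± 0.12. *rrn6*, for a transcription factor of RNA polymerase I, was higher at 0.87 ± 0.43. The translation, polymerase and nucleolar lists were also drawn up after the values had been seen.

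Transcription factors and signalling genes among the lower genes were *sfp1* at -1.06, *pac2* at -1.09 ± 0.29, and *ras1*, for the Ras GTPase, at -0.62 ± 0.11. Smaller sets held *isu1*, the scaffold for iron-sulfur clusters, at -0.78 ± 0.19 and *grx4*, a glutaredoxin, at -0.68 ± 0.20, while none of 13 iron uptake genes passed. *pho4*, the thiamine-repressible acid phosphatase, was lower at -0.64 ± 0.07 and *nmt1*, of thiamine synthesis, was higher at 0.61 ± 0.07 (SD, n = 2), so genes known for the same repression by thiamine stood on opposite sides. None passed among 26 proteasome, 27 oxidative phosphorylation, 15 MBF-regulated G1/S, 17 mitosis and cell separation, or 12 *wtf* genes.

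**Figure D4:**
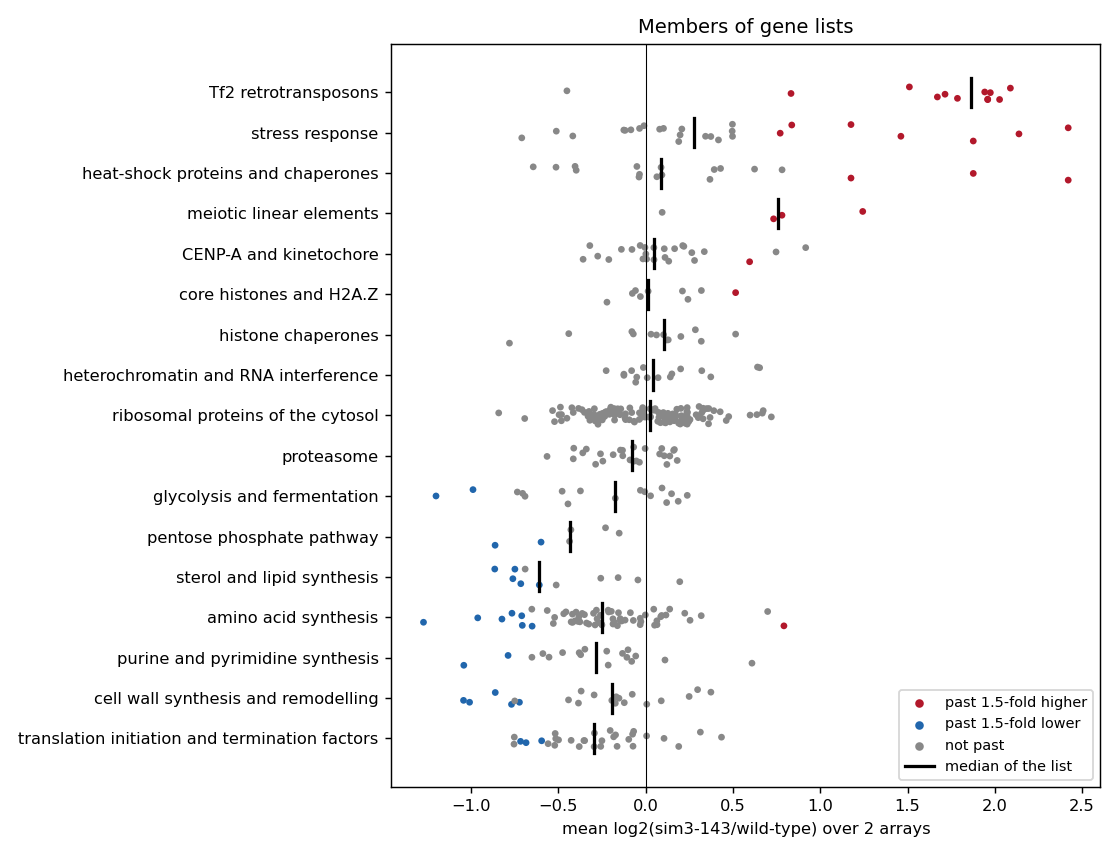
Mean log2 ratio of *sim3-143* over wild-type over the 2 arrays for the members of 17 gene lists. Red and blue points passed 1.5-fold in at least 3 of 4 spots, grey points did not, and black bars are medians. Tf2 probes centre near 1.86 and lipid synthesis genes near -0.61, while ribosomal protein, kinetochore and histone genes centre near 0.

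By position, the higher genes took 2.07%, 2.21% and 1.90% of the measured genes of chromosomes I, II and III, and the lower genes 1.84%, 1.25% and 0.711%. Of 114 genes on subtelomeric cosmids, 3 were higher (2.63%, against 2.09% of all genes) and 3 lower (2.63%, against 1.39%). Their median was -0.02. Among 4200 pairs of measured neighbours in the gene table, both were higher in 3 pairs, both lower in 3, and in 3 they were on opposite sides. The pairs with both higher included a pair of Tf2 probes, whose copies do not count as separate genes. Whether neighbours passed together more often than other genes was not tested. The opposite pairs were *ght8* and *ght1*, *rec10* and *his1*, and *Tf2-3* and *cao1*, a copper amine oxidase gene at -0.97 ± 0.25, which is followed by *cbm1* at -1.26 ± 0.38 (SD, n = 2). *eca39* and *pho4* were neighbours that were both lower.

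Near the 1.5-fold cutoff, the log2 ratio of the spot that decided membership was 0.59 for *get1* and 0.60 for *nop4* just inside, and 0.58 for *cog4*, *atg17*, *mis12* and SPAC1F8.04c just outside. SPAC1F8.04c had spots of 0.58 and 0.47 on replicate 1 and 1.42 and 1.36 on replicate 2. On the lower side, *odc1*, *rcl1* and *ras1* were at -0.59 just inside, and *end4* and *phs1* at -0.58 just outside. Membership at this edge therefore turned on differences far smaller than those between the arrays.

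Of the 168 genes, 163 were found in the gene table and 132 have a symbol there, so part of the profile has no named role. SPCC794.05c was among the higher ones, at 1.84 on replicate 1 and 1.19 on replicate 2, as was SPAC11D3.01c, at 1.44 and 1.26. *lsd90* was at 1.75 and 0.90. Among the lower ones, SPAC25B8.12c was at -0.91 on replicate 1 and -1.67 on replicate 2. *ppt1* was at -0.61 and -1.33, and *tda1* at -0.93 and -0.97. The ratio was larger in size on replicate 2 for 117 of the 168 genes.

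Probes of a gene did not always match, as for *gpd1* above. The *abc1* probe was at 0.77 ± 0.03 and its second probe at 0.25. The probe named *cor1* was at 0.83 ± 0.13 (SD, n = 2), but the probe with the systematic name of the gene now called *cor1* was at -0.33, and an older use of that name belongs to *nse6*, so the gene it reports is uncertain.

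The *sim3-205* arrays gave values beside these in the same fit, though replicate 1 of that allele held the grids with unrelated dyes. *hsp16* was at 3.36 and 1.48 in *sim3-143*, against 2.92 and 1.43 in *sim3-205* (replicates 1 and 2), *hsp104* at 1.65 and 0.70, against 2.75 and 1.61, and *zym1* at 1.22 and 3.06, against 1.26 and 2.84. *nop14* was at 1.76 and 1.85, against 1.14 and 1.21, and *cta3* at 1.39 and 1.53, against 0.34 and 0.56. The limma contrast of the alleles passed an adjusted p of 0.05 in 0 of 4820 genes, with 244 at an unadjusted p under 0.05. Its unadjusted p was 0.76 for *hsp16*, 0.028 for *nop14* and 0.0056 for *cta3*. Whether the alleles were set against the same wild-type RNA is not stated.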

How the data were processed

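RNA of logarithmically growing *sim3-143* and wild-type cells had been hybridized to 2 dye-swapped arrays. The authors deposited scanner files of median spot intensity and local background intensity in each dye, not normalized, and tables of log2 ratios from GeneSpring after Lowess normalization per spot and chip. The direction of the deposited log2 ratios was set by comparison with the scanner values. Their medians were 0.0029 and 0.0718 on replicates 1 and 2, and the sources used here do not say how background was treated.

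In R 4.3.3 with limma 3.58.1, background was removed from the intensities by normexp (offset 50), the dyes of every spot file were brought together by loess (span 0.3), and ratios were turned to *sim3-143* over wild-type. Loess assumes that most genes do not differ, so ratios are relative to the typical gene. Controls and empty spots were left out, as were 8 and 60 spots with codes 1 or 4 of the image software. The 1062 spots of replicate 1 with code 3 had ordinary intensities and were kept, a choice made after they were seen. Probes of a name were averaged, and other probes of a gene were kept apart. Names came from the files, and 4676 of 4857 were found in RefSeq's genes of ASM294v3, which gave symbols and gene order. Arrays have no read depth, and their number limits the precision.

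Counts needed 3 of 4 spots past the cutoff, the rule of 3 of 4 data points that the study's gene lists name, taken here as 2 spots on each of 2 arrays. The test was limma (lmFit, then eBayes) over all 4 arrays, in which each allele had its own coefficient, with p-values adjusted by Benjamini-Hochberg. With 2 arrays an exact test per gene cannot reach the threshold. The scripts were tested on simulated data. The genes named were the 15 highest and 15 lowest past 1.5-fold, list members past it, *sim3* and SPAC1F8.04c, and others past 1.5-fold by role. Other named genes below the cutoff, and the lists said to be drawn up later, were chosen after their values were seen. The members and all lists were chosen with earlier results of these data known. Promoter sequences were not analysed here. Figures and counts used Python with pandas and matplotlib.

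The alternatives were other background corrections and dye normalizations, the deposited values, names as written, filters on dim or coded spots, each array left out, other count rules, a dye coefficient, *sim3-143* alone, an adjusted p below 0.1, and grids with unrelated dyes left out.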

Additional observations from a re-analysis of the deposited data

Results flagged for a closer look

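The 7 genes below were past 1.5-fold in *sim3-143* and had both *sim3-143* arrays on one side of 0 and both *sim3-205* arrays on the other. They were picked for that pattern and say nothing of how alike the alleles are over other genes. In the limma contrast of the alleles none of them passed after adjustment. The *sim3-143* mean minus the *sim3-205* mean (log2) was 1.44 for SPBC887.08, 1.54 for *pwi1* and 0.93 for *nop4*, which were higher in *sim3-143*. It was -0.91 for *grx4*, -1.17 for *vcx1*, -1.31 for SPBPB10D8.04c and -1.15 for *ade8*, which were lower in *sim3-143*. For *ade8* the means were -1.04 in *sim3-143* and 0.11 in *sim3-205*, and the unadjusted p was 0.0036. Some *sim3-205* values were close to 0, such as 0.01 for *vcx1* on replicate 2. For *pwi1* they were -1.59 on replicate 1 and -0.0038 on replicate 2, so its difference rests on replicate 1. That array held the grids with unrelated dyes, and whether any of the 7 genes lie in them is not given here.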

How the results depend on the processing

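Genes past 1.5-fold numbered 84 to 113 higher and 49 to 78 lower under other background corrections, dye normalizations, and filters on dim or coded spots. With all 4 data points required there were 64 higher and 36 lower, and by the mean 235 and 164. The deposited ratios gave 20 and 16 as placed in their tables and 41 and 23 once moved back to their spots, and names as written gave 19 and 16. Leaving out 1 array gave 112 to 442 higher and 101 to 354 lower. Past 2-fold, the mean gave 47 higher and 13 lower, the deposited ratios 0 and 0 as placed and 7 and 1 moved back, names as written 1 and 0, and leaving out 1 array 29 to 125 and 5 to 63. The 2 lower genes became 4 with plain background subtraction, 0 without correction or with all 4 data points required, 5 with median centring, and 1 when coded spots were left out.

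limma's 0 calls became 3 with print-tip loess, 9 without the grids of unrelated dyes, and 43 with *sim3-143* fitted alone. Leaving out 1 array gave 0 to 43. No other alternative run gave a call.

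The deposited ratios as placed turned the sign of list medians for iron uptake (-0.28), thiamine synthesis (0.14), mitosis and cell separation (0.0294), cell-surface glycoproteins (0.00333), amino acid synthesis (0.00800) and purine and pyrimidine synthesis (0.0896), and of *cao1* (0.76), *lys4* (0.0946), *hom3* (0.00800), *nop4* (-0.26), *pan5* (0.0646) and *ght8* (1.32). Moved back, they turned glycolysis and fermentation (0.0751), iron uptake (-0.13), and purine and pyrimidine synthesis (0.22). Names as written turned iron uptake (-0.17), cell-surface glycoproteins (0.0741), *cao1* (0.64), *nop4* (-0.21), *pan5* (0.0805) and *ura1* (0.14), and print-tip loess turned cell-surface glycoproteins (0.0340). Moved back, the deposited ratios held 1 glycolysis and 2 nucleotide genes, whose medians here were 0.0944 and 0.25. The cause was otherwise not tested, though values as placed and names as written set replicate 2 against other genes. Each log2 ratio pairs mutant and wild-type RNA on the same array. Arrays were not paired across alleles, because the replicate numbers follow the order of the samples.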
